A study of Mus musculus with 9 samples.

Results

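Vcan, the gene for the cumulus matrix proteoglycan versican, was counted in 8 of 9 RNA-seq libraries made from pools of mouse eggs, at levels from 0.26 to 15.1 CPM (a gene's share of the library's total count, scaled to a total of 1000000). The libraries were divided at 5 CPM of Vcan, whatever their reporter group. GFP High 1, GFP Low 1, RFP 1 and RFP 2 lay at or above that level, and GFP High 2, GFP High 3, GFP Low 2, GFP Low 3 and RFP 3 lay below it, giving 4 libraries on one side and 5 on the other. The nearest libraries to the threshold were RFP 1 at 7.43 CPM and GFP Low 3 at 1.84 CPM. Because the sides were defined by a measured transcript, the differences between them are descriptions and carry no test.

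All eggs were metaphase II (MII) oocytes of 4-week-old Sycp3CreERT2/+; Rosa26nT-nG/+ females on a mixed genetic background, so every group carried both alleles. The first places a tamoxifen-inducible Cre recombinase under the meiotic gene Sycp3, and the second makes nuclear tdTomato before Cre recombination and nuclear GFP after it. Females had received 5 IU of PMSG and, 48 h later, 5 IU of hCG, and complexes were taken from the oviduct 13 h after hCG and stripped of cumulus cells by 1 min in hyaluronidase at 0.3 mg/ml. Oocytes were picked by hand on fluorescence (n = 3 libraries per group), in pools of 87 to 100 eggs for RFP, 49 to 57 for GFP Low and 15 to 16 for GFP High. The side with more Vcan held 1 of 3 GFP High, 1 of 3 GFP Low and 2 of 3 RFP libraries. Nothing in the labels says that replicate pools came from separate animals, so p-values below measure only the spread between these pools.

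Cumulus cells are the granulosa cells that surround the oocyte and are coupled to it by gap junctions. After the ovulatory hormone surge they secrete hyaluronan and build it into an expanded matrix with versican, the hyaluronan-modifying protein TSG-6 (Tnfaip6) and pentraxin 3 (Ptx3), helped by prostaglandins made through Ptgs2. They also make the inhibin and activin subunits encoded by Inha and Inhba. Hyaluronidase dissolves this matrix so that the cells can be washed off.

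Library totals over 30153 genes ranged from 19381677 to 27236006 counts on the side with more Vcan and from 22223961 to 27746256 on the other. The transcripts at least 2-fold higher without overlap on the side with more Vcan were scarce. These 72 genes, described below, held at most 0.0846% of a library's counts. A pair of libraries stood apart. GFP High 2 had no Vcan count in 24940945 and the fewest genes at 1 CPM or more, 12375, against 12635 to 12951 in the others. RFP 1 was placed on the side with more Vcan but held other cumulus transcripts at low levels, so results are also given without it. In bulk RNA, fewer somatic cells and less RNA per cell cannot be told apart.

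The 4 genes taken as cumulus markers were high or low together in most libraries. Vcan (chromosome 13, 89655312 to 89742509, minus strand, GRCm38) stood at 10.5 CPM in GFP High 1, 11.8 in GFP Low 1, 7.43 in RFP 1 and 15.1 in RFP 2. It stood at 0 in GFP High 2, 0.945 in GFP High 3, 0.342 in GFP Low 2, 1.84 in GFP Low 3 and 0.26 in RFP 3. RFP 2 was the highest library, and each reporter group had at least 1 library on either side.

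Tnfaip6 (chromosome 2, 52038009 to 52056686, plus strand) was also highest in RFP 2, with 7.23 CPM in GFP High 1, 6.66 in GFP Low 1, 11 in RFP 2 and 1.06 in RFP 1. On the other side it was 0 in GFP High 2 and RFP 3, 0.266 in GFP Low 2, 0.541 in GFP Low 3 and 0.135 in GFP High 3. The sides did not overlap, but RFP 1 lay nearer to GFP Low 3 than to the other libraries of its own side. Tnfaip6 links heavy chains onto hyaluronan, the step that stabilises the expanded matrix.

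Inha (chromosome 1, 75507077 to 75510366, plus strand) was counted 88 times in GFP High 1, 108 times in GFP Low 1, 12 times in RFP 1 and 144 times in RFP 2, or 3.23, 5.57, 0.455 and 6.36 CPM. It was not counted in any of the 5 libraries with less Vcan. Its mean was therefore at least 166.8-fold higher on the side with more Vcan, taking 3 counts over the whole of the other side as the floor, which covers counting error only because the protocols describe no molecular identifiers. Of the 4 markers, Inha alone had no count anywhere on the lower side.

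Inhba (chromosome 13, 16011851 to 16031621, plus strand), the activin beta A subunit, was at 5.47 CPM in GFP High 1, 6.45 in GFP Low 1, 2.5 in RFP 1 and 8.30 in RFP 2. It was at 0 in GFP High 2 and between 0.225 and 0.721 in the other libraries with less Vcan. The ratio of the mean CPM of the sides was 16.6 for Vcan, 34.4 for Tnfaip6 and 18.4 for Inhba. Adjusted for transcript length, in the authors' FPKM values, the median on the side with more Vcan was 4.02 for Tnfaip6, 2.95 for Inha, 0.923 for Inhba and 0.765 for Vcan, so the gene that defined the sides was the least abundant of the 4 per unit length.

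**Figure D1:**
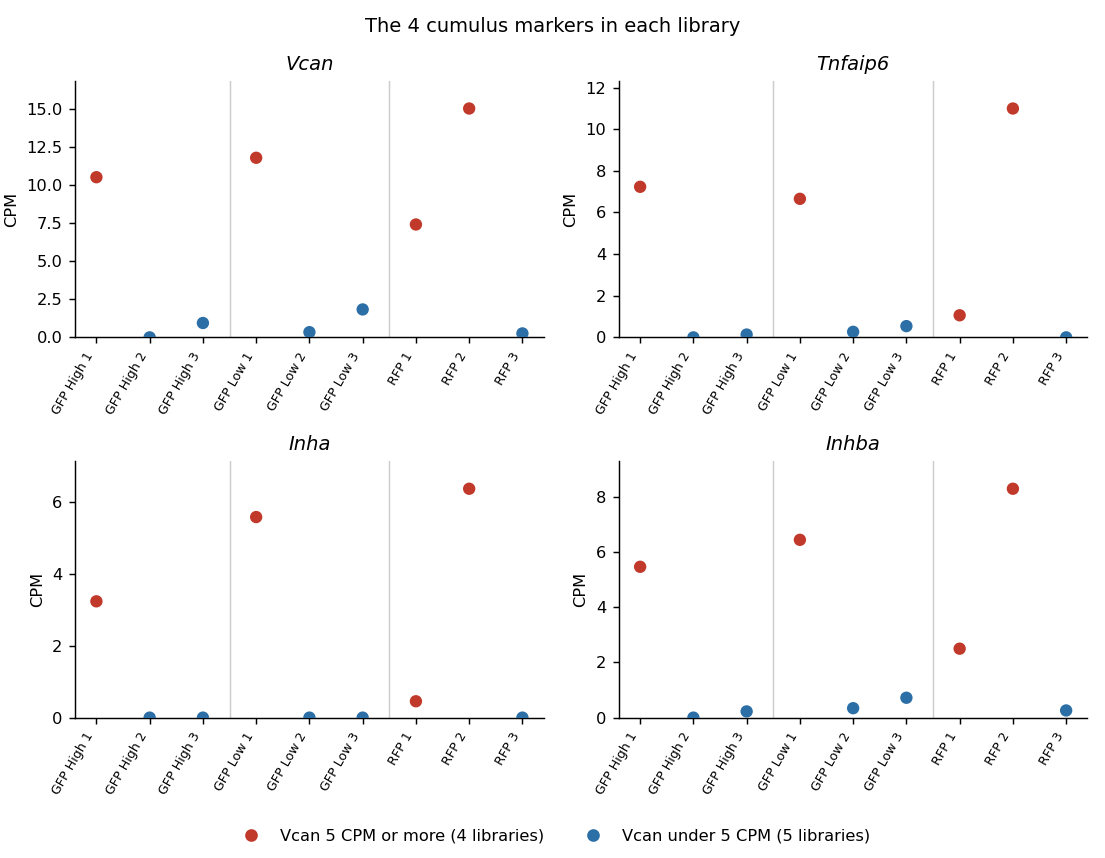
CPM of Vcan, Tnfaip6, Inha and Inhba (y axes, linear, from 0) in each of the 9 libraries (x axis, grey lines separate reporter groups), 1 point per library, red for Vcan of 5 CPM or more and blue for less. RFP 1 lies at 7.43 CPM for Vcan but at 1.06 for Tnfaip6 and 0.455 for Inha.

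Across all genes with a mean of 1 CPM or more, 12806 in number, 174 (1.36%) were higher in each of the 4 libraries with more Vcan than in each of the other 5, and 93 (0.726%) were lower in each. Asking also for a ratio of means of at least 2 left 72 higher genes (0.562%) and 17 lower genes (0.133%). The sets were drawn from the same libraries that the Vcan values divided, so the counts are not evidence for the division. Of the 72 higher genes, 66 were protein coding, and 42 had a mean under 1 CPM on the side with less Vcan. Without RFP 1, 347 genes (2.71%) were higher and 220 (1.72%) lower with no overlap. Of these, 117 (0.913%) and 38 (0.297%) had the ratio of at least 2, including 66 of the 72 and all 17 of the first sets.

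Part of the listed matrix and ovulatory genes separated the sides. Of 24 listed genes of cumulus expansion, 23 were in the tables, 10 had a mean of 1 CPM or more, and 3 of those (Vcan, Tnfaip6 and Btc) separated the sides. Vcan did so by the rule that made the sides. Tnfaip6 and Btc had means of 0.188 and 0.0729 CPM with less Vcan and passed the filter only through the other side. Of all genes, 1.36% were higher without overlap. The count is a description and not evidence for the division. The median log2 ratio of the sides over the 10, Vcan included, was 0.97, against 0.01 over all genes. Btc, which encodes the EGF-family ligand betacellulin, was at 7.42 CPM in GFP High 1, 2.68 in GFP Low 1, 0.493 in RFP 1 and 3.84 in RFP 2. It was at 0 in GFP High 2, GFP High 3 and GFP Low 2, at 0.216 in GFP Low 3 and at 0.148 in RFP 3.

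Ptx3 and Ptgs2 separated the sides only when RFP 1 was set aside. Ptx3 was at 9.76 CPM in RFP 2, 6.29 in GFP Low 1 and 5.84 in GFP High 1, at 0.682 in RFP 1, and from 0 to 1.59 in the libraries with less Vcan. Ptgs2, the inducible prostaglandin synthase, was at 5.07, 3.20 and 7.42 CPM in GFP High 1, GFP Low 1 and RFP 2, at 0.644 in RFP 1, and from 0 to 2.23 on the other side. In both genes the RFP 1 value lay below that of GFP Low 3, a library of the other side. The counting of Ptx3 could include reads of Veph1 on the opposite strand, since the use of strand in counting is not given in the sources used here.

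Below the limit of 1 CPM on average, 1 further gene of the cumulus list (Sult1e1), 1 of the granulosa list (Inhbb) and 2 of the matrix and cytoskeleton list (Tagln2 and Lgals1) separated the sides. The ligand genes Areg and Ereg, which act early in the ovulatory response, had at most 3 and 9 counts in a library. Has2, the hyaluronan synthase, overlapped between the sides, with 1.08 CPM in GFP High 3 and at most 0.839 in the libraries with more Vcan.

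Some granulosa genes separated the sides, some were abundant in every library and others were scarce. Of 26 listed granulosa genes, 13 had a mean of 1 CPM or more, and Inha, Inhba, Gja1 and Hsd3b1 separated the sides. Inha, Inhba and Gja1 had means under 1 CPM with less Vcan and passed the filter only through the other side. The share of all genes higher without overlap was 1.36%. The median log2 ratio over the 13 was 0.29. Gja1, which encodes the gap junction protein connexin 43 of granulosa cells, was at 14.7 CPM in GFP High 1, 9.29 in GFP Low 1, 3.98 in RFP 1 and 16.8 in RFP 2. It was at 0 in GFP High 2, GFP High 3 and RFP 3, at 0.19 in GFP Low 2 and at 2.85 in GFP Low 3, a ratio of means of 18.4. Hsd3b1, a steroidogenic dehydrogenase, ranged from 4.19 to 7.99 CPM with more Vcan and from 0 to 2.83 with less. Its gap was narrow because GFP High 3 lay at 2.83 CPM. Fst, the gene for the activin-binding protein follistatin, was at 4.44 to 6.27 CPM in GFP High 1, GFP Low 1 and RFP 2 but at 0.644 in RFP 1, within the 0 to 1.21 CPM of the other side.

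Without RFP 1, Fst and Gata4 separated the sides too, Gata4 by 19.8 CPM at the lowest with more Vcan against 19.6 at the highest with less. Other abundant genes of the list overlapped between the sides. Nr5a2, a nuclear receptor, had a median of 119 CPM on each side, with ranges of 104 to 159 and 99.7 to 127. Esr2, estrogen receptor beta, had medians of 40.7 CPM with more Vcan and 39.7 with less. Cyp19a1, the aromatase, ranged from 10.3 to 18.3 CPM with more Vcan and from 6.78 to 17.7 with less. These genes were measured at similar levels in pools whose Inha was absent, so their presence alone did not separate the libraries. In contrast, Foxl2, Amh and Lhcgr, which mark the granulosa lineage and its stages, had medians of 0.269, 0 and 0 CPM on the side with more Vcan and 0 on the other.

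A like pattern held for 2 abundant members of the cumulus list. Egfr, the receptor through which the ovulatory ligands act, had medians of 123 CPM with more Vcan and 137 with less. Rgs2, a regulator of G-protein signalling, ranged from 234 to 277 CPM with more Vcan and from 233 to 291 with less. Rgs2 and Egfr together took 80.8% of the summed CPM of the list. The summed list therefore overlapped between the sides, at 444 to 537 CPM with more Vcan and 420 to 517 with less, although the number of its members with at least 3 counts did not, at 15 to 20 against 7 to 13.

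Cytoskeletal and matrix genes common to many somatic cells also divided into those that followed Vcan and those that did not. Of 22 listed genes, 14 had a mean of 1 CPM or more, 5 of them separated the sides, and the median log2 ratio was 0.64. The share of all genes higher without overlap was 1.36%. Of the 5, Vim, Cald1, S100a10 and S100a11 had means under 1 CPM with less Vcan and passed the filter only through the other side. Vim, the intermediate filament protein vimentin, was at 10.2 CPM in GFP High 1, 8.41 in GFP Low 1, 10.6 in RFP 1 and 12.6 in RFP 2. It was at 0 in GFP High 2 and RFP 3, at 0.045 in GFP High 3, at 1.14 in GFP Low 2 and at 0.685 in GFP Low 3. Cald1, the actin-binding caldesmon, ranged from 9.29 to 14.2 CPM with more Vcan and from 0 to 1.14 with less, and both genes had a ratio of means of 28.0. Unlike Tnfaip6 and Inha, Vim and Cald1 were as high in RFP 1 as in the other 3 libraries of its side.

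S100a10, a calcium-binding partner of annexin A2, was at 3.38, 1.5, 3.52 and 2.61 CPM in GFP High 1, GFP Low 1, RFP 1 and RFP 2 and had no count in the other 5 libraries. Its mean was at least 117.5-fold higher, with the same floor of 3 counts. S100a11 ranged from 1.70 to 3.80 CPM with more Vcan and from 0 to 1.08 with less, and Ahnak, a large scaffold protein, from 4.00 to 10.4 and from 0.532 to 2.43. Other listed genes did not follow. Tmsb10, thymosin beta 10, had medians of 225 and 220 CPM, and Fn1, fibronectin, of 37.7 and 36.2. Anxa2, the partner of S100a10, overlapped between the sides at 22.3 to 32.3 and 18.8 to 29.9 CPM.

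**Figure D2:**
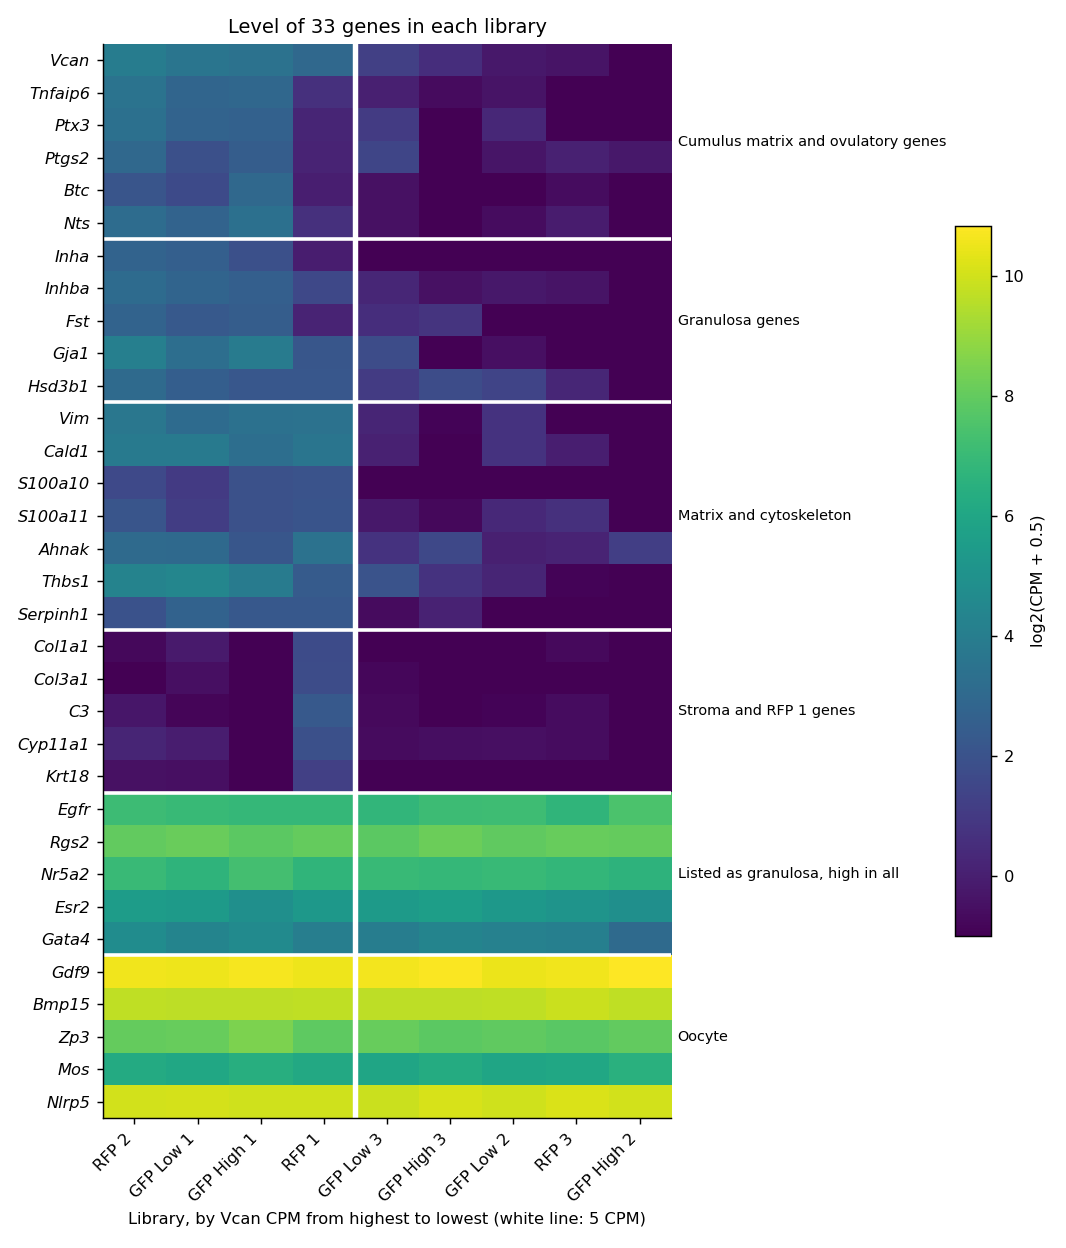
Level of 33 genes (y axis, grouped by role) in the 9 libraries (x axis, ordered from highest to lowest Vcan, white vertical line at 5 CPM), coloured as log2(CPM + 0.5). Cumulus and cytoskeletal genes are brighter left of the line, with Tnfaip6, Ptx3 and Inha dark in RFP 1, whereas Egfr, Rgs2, Nr5a2, Esr2 and the oocyte genes have nearly the same colour throughout and Gata4 runs from 8.1 CPM in GFP High 2 to 26.4 in RFP 2.

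Outside the lists, the protein-coding genes with the largest ratios between the sides reached levels as high as the markers. Nupr1, a stress-response chromatin protein, was at 17.5, 24.8, 5.12 and 23.9 CPM in GFP High 1, GFP Low 1, RFP 1 and RFP 2, and from 0 to 2.81 in the other libraries, a ratio of means of 17.3. Thbs1, a matrix thrombospondin, was at 14.9, 21.5, 4.81 and 19.0 CPM in the same order and from 0 to 3.57 on the other side. Scd2, a fatty acid desaturase, ranged from 3.71 to 11.9 CPM with more Vcan and from 0 to 0.613 with less. For these genes RFP 1 was the lowest library of its side. Thbs1 overlaps Gm29233 on the opposite strand, and reads of the pair could not be told apart.

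Nts, the precursor of the peptide neurotensin, which cumulus cells make after the ovulatory surge, was at 9.88 CPM in GFP High 1, 6.24 in GFP Low 1, 1.06 in RFP 1 and 8.61 in RFP 2, and at most 0.445 elsewhere. Ephx2, the soluble epoxide hydrolase, was at 26.6, 26.9, 14.7 and 32.8 CPM, and from 0.631 to 3.87 with less Vcan. Serpinh1, the collagen chaperone HSP47, ranged from 3.40 to 6.09 CPM against 0 to 0.585. Per unit length, Ephx2 was the most abundant of these in the authors' FPKM, with a median of 10.7 on the side with more Vcan, against 8.11 for Nupr1, 5.86 for Nts and 2.75 for Thbs1. Slc7a8, an amino acid transporter, ranged from 4.58 to 15.3 CPM with more Vcan and from 0 to 3.50 with less. Bex4, Pls3, Crim1, Ldha, Skil and Itga2 had ratios of means of 13.2, 29.8, 8.77, 40.0, 10.3 and 21.

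Spp1 and Tox3 separated the sides by small margins. Spp1, the secreted protein osteopontin, ranged from 7.39 to 14.3 CPM with more Vcan, and was at 6.57 in GFP High 3, while the other 4 libraries with less Vcan were at or under 0.252. Tox3 ranged from 12.0 to 27.2 CPM with more Vcan, and was at 7.97 in GFP Low 3. GFP High 3 thus held osteopontin RNA near the level of RFP 1 with Vcan at 0.945 CPM and no Inha count.

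Within the 72 genes, the libraries of the lower side were graded rather than uniform. GFP High 2 had no count in 44 of the 72 and was the lowest of the 5 for 54. Over all genes it also had the fewest at 0.1 CPM or more, 13988 against 16442 to 20648 in the other libraries. Its missing counts were thus not limited to the 72. GFP Low 3 was the highest of the 5 for 28 genes and had 37 of the 72 at 1 CPM or more, the most on that side. Summed over the 72 genes, the libraries with less Vcan held 111 to 193 CPM and those with more held 610 to 846. The 72 were chosen for being higher with more Vcan, so the gap between the sums was fixed by that choice. Without Gm26917, a noncoding RNA described below, the sums were 111 to 166 and 441 to 655 CPM. Of the 5, GFP High 3 had the highest sum with Gm26917 included, and GFP Low 3 the highest Vcan. Without Gm26917, GFP Low 3 had the highest sum, 166 CPM, against 161 in GFP High 3.

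**Figure D3:**
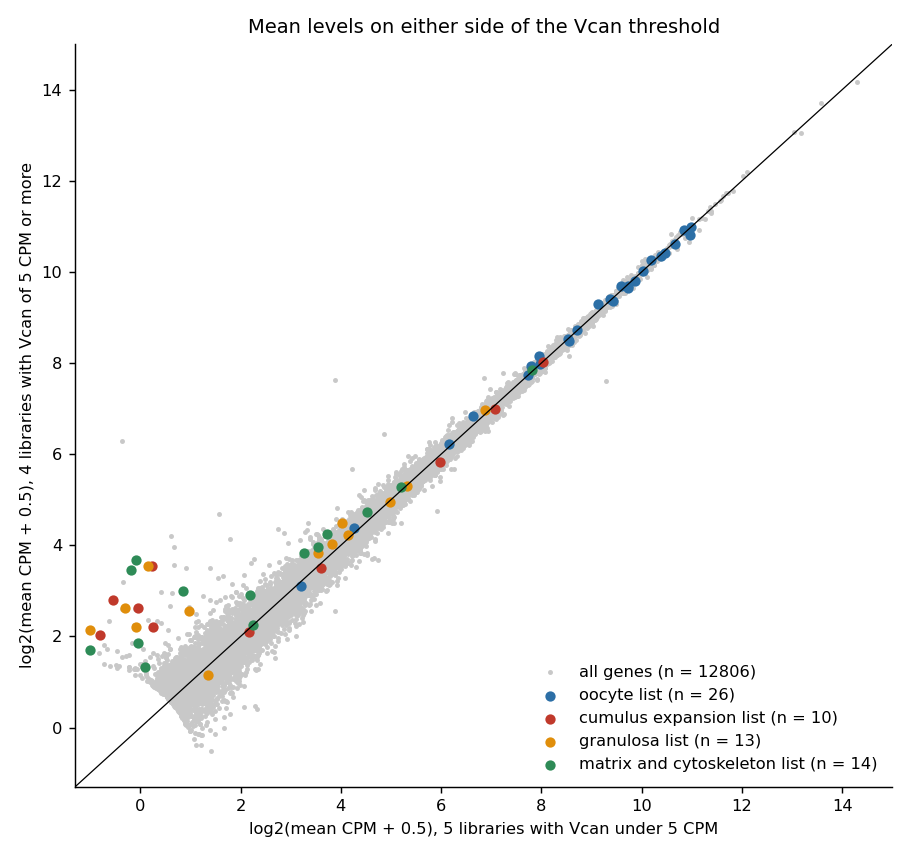
Mean level of each of 12806 genes in the 4 libraries with Vcan of 5 CPM or more (y axis) against the 5 with less (x axis), both as log2(mean CPM + 0.5), grey for all genes and coloured for 4 lists; the diagonal marks equal levels. The 26 oocyte genes lie along the diagonal, with log2 ratios from -0.17 to 0.21, while part of each somatic list lies far above it and part lies on it.

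RFP 1 held several cumulus transcripts at lower levels than the other libraries with more Vcan. It was the lowest of the 4 for 40 of the 72 genes, against 14, 7 and 11 for GFP High 1, GFP Low 1 and RFP 2. Per 100 counts of Vcan, RFP 1 had 14.3 counts of Tnfaip6 (95% exact interval 9.25 to 21.3), whereas GFP High 1 had 68.6, GFP Low 1 had 56.3 and RFP 2 had 73.0. It had 9.18 of Ptx3 (5.33 to 14.9), against 53.3 to 64.8 in the other 3, and 6.12 of Inha (3.11 to 10.9), against 30.7 to 47.2. The intervals cover counting error within a library only, and those of RFP 1 for these 3 genes did not meet those of the other libraries. Such gaps were not particular to RFP 1. Per 100 counts of Vcan, GFP High 1 had 70.4 of Btc (58.5 to 84.6), against 22.7 in GFP Low 1 (16.5 to 30.8) and 25.5 in RFP 2 (19.9 to 32.4). RFP 1 had 6.63 of Btc (3.47 to 11.6).

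Other transcripts were raised relative to Vcan in RFP 1. It had 142 counts of Vim per 100 of Vcan (118 to 172), against 71.2 to 97.2 in the other 3, and 140 of Ahnak (116 to 169), against 38 to 65.9. Timp1, an inhibitor of matrix metalloproteinases, stood at 70.4 (56.2 to 88.0), against 2.79 to 11.7. Inhba stood at 33.7 (25.1 to 44.7), closer to the 51.9 to 55.1 of the other libraries. Relative to Vcan, itself a matrix gene, RFP 1 thus had fewer counts of Tnfaip6, Ptx3 and Inha and more of Vim, Ahnak and Timp1. Cald1 and S100a10 were less distinct. Cald1 stood at 156 in RFP 1 (130 to 187), and its interval met that of GFP Low 1 (100 to 143). S100a10 stood at 47.4 (36.7 to 61.0), and its interval met that of GFP High 1 (25.1 to 40.7).

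**Figure D4:**
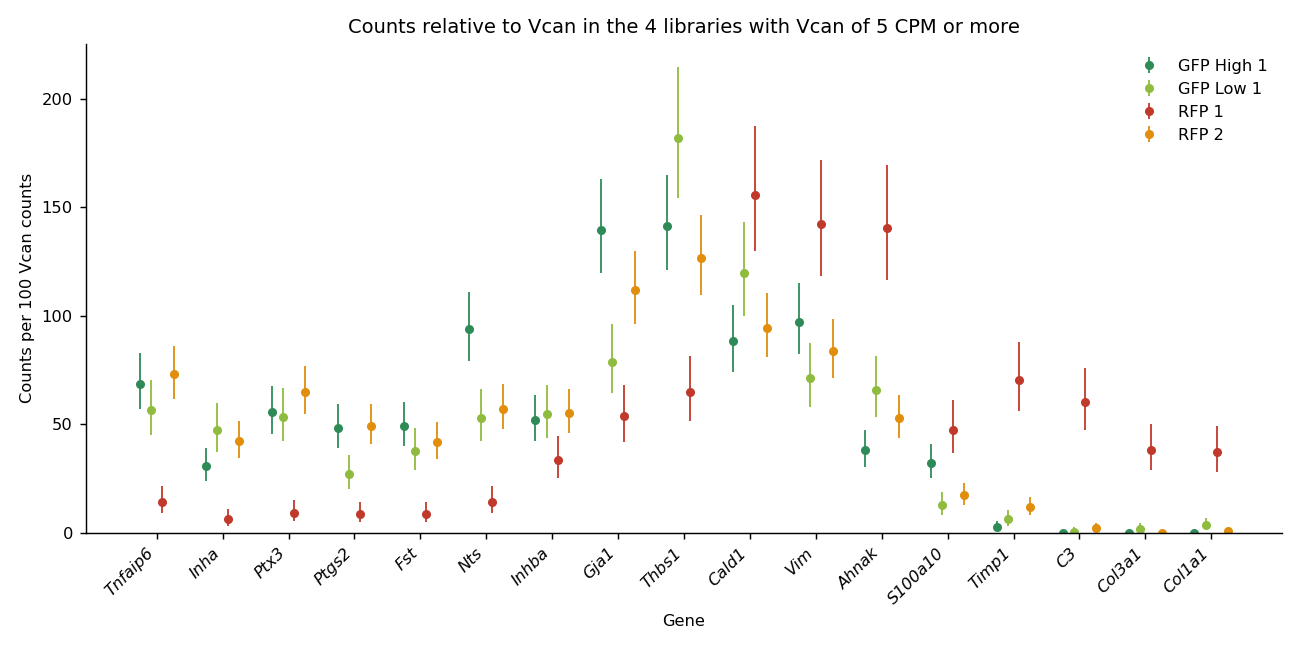
Counts of selected genes per 100 Vcan counts (y axis, linear, from 0) in the 4 libraries with Vcan of 5 CPM or more, 1 colour per library, with 95% exact intervals that cover counting error only. Btc is not drawn. RFP 1 lies lowest for Tnfaip6 at 14.3 and highest for Vim at 142 and Timp1 at 70.4.

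The stromal collagen genes Col1a1 and Col3a1 were counted mostly in RFP 1 and so did not mark the side as a whole. Col1a1 was counted 73 times in RFP 1, 8 times in GFP Low 1, 2 times in RFP 2, 3 times in RFP 3 and 0 times in the other 5 libraries. Col3a1 was counted 75 times in RFP 1, 4 times in GFP Low 1, 2 times in GFP Low 3 and 0 times elsewhere. The summed CPM of 7 stroma and theca genes was 10.9 in RFP 1 and at most 3.21 in the others, while Cyp17a1, which defines theca cells, was at 0 in RFP 1. Pdgfra, the only 1 of the 7 with a mean of 1 CPM or more, overlapped between the sides, with a log2 ratio of 0.57.

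A search made after seeing these values, for genes with at least 20 counts in RFP 1 and a CPM at least 2 times that of any other library, gave 21 genes, of which 17 were protein coding. The same search gave 267 to 544 genes in the GFP High libraries and 8 to 57 in each of the GFP Low libraries and RFP 2 and 3, so the number for RFP 1 was not unusual. Among the 21 were C3, the complement component, at 4.47 CPM against at most 0.309 elsewhere, and Cyp11a1, the side-chain cleavage enzyme of steroid synthesis, at 3.22 against at most 0.662. Krt18, an epithelial keratin, was at 1.86 CPM in RFP 1 and at most 0.221 elsewhere, and Krt19 had 27 counts in RFP 1 and none in the other 8 libraries. Epcam, another epithelial gene, separated the sides at 0.826 to 2.21 CPM with more Vcan and 0 to 0.76 with less, below the filter of 1 CPM on average. The oviduct epithelial list as a whole overlapped between the sides, at 11.2 to 21 CPM and 8.74 to 21.9, and Ovgp1, the oviductal glycoprotein gene, had no count in RFP 1 and at most 2 in any library. Which cells these transcripts came from was not tested.

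Listed markers of other cell types mostly overlapped between the sides. No listed endothelial, leukocyte, smooth muscle, erythrocyte or immediate-early gene with a mean of 1 CPM or more separated the sides, of 3, 1, 2, 0 and 6 such genes. With 1.36% of all genes higher and 0.726% lower without overlap, a count of 0 among so few genes is near the background. Below that level, 3 immediate-early genes, Jun, Ier2 and Nr4a1, separated the sides. Jun ranged from 0.771 to 1.97 CPM with more Vcan and from 0 to 0.721 with less, Ier2 from 0.834 to 1.32 and from 0 to 0.721, and Nr4a1 from 0.751 to 1.02 with no count on the other side. All 3 encode proteins that many stimuli induce quickly in many cell types. Pecam1, an endothelial adhesion gene, had medians of 40.8 CPM with more Vcan and 43.3 with less, and Myh11, a smooth muscle myosin gene, had 936 and 1000.1. Ptprc, which defines leukocytes, was at or under 0.45 CPM in every library. The abundance of Pecam1 and Myh11 was thus shared by all pools, including those at 0 for Inha.

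Oocyte transcripts had similar levels on the sides. The log2 ratios of 26 listed oocyte genes ran from -0.17 to 0.21, with a median of 0.01, the value over all genes. None separated the sides, a count near the background of 1.36% higher and 0.726% lower. Gdf9, an oocyte-secreted growth factor, ranged from 1508 to 1645 CPM with more Vcan and from 1431 to 1832 with less. Bmp15, its partner, ranged from 799 to 842 and from 799 to 950, and Mos, the kinase that holds the egg at metaphase, from 65.4 to 86.0 and from 61.0 to 89.7. Summed, the 26 genes took 18785 to 21488 CPM with more Vcan and 18704 to 22531 with less. Genes of cholesterol synthesis, a pathway that cumulus cells carry out for the oocyte, overlapped for all 15 members at 1 CPM or more (Mvd was lower without overlap once RFP 1 was set aside), and so did all 19 mitochondrially encoded genes at that level.

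Cytosolic ribosomal protein genes mostly had higher means with more Vcan. Of 75 with a mean of 1 CPM or more, 62 had a higher mean on the side with more Vcan, against 6579 of all 12806 genes, and the median log2 ratio was 0.24. Rpl26 and Rps27rt, 2 of the 75, were higher without overlap, near the 1.36% of all genes. Without RFP 1 the number was 13 of 76, beside 2.71% of all genes. Rpl26 was at 58.3, 99.9, 73.2 and 117 CPM in GFP High 1, GFP Low 1, RFP 1 and RFP 2, and from 6.53 to 45.5 on the other side. The summed level overlapped, at 4203 to 5434 and 3768 to 4761 CPM. These genes have many processed copies among which reads can be divided, so values for single members are uncertain.

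The reporter transcripts followed the labels and overlapped between the sides. eGFP was at 0, 0.353 and 0.594 CPM in RFP 1, 2 and 3, at 14.5, 16.7 and 23.9 in the GFP Low libraries, and at 36.2, 43.3 and 39.1 in those of GFP High. tdTomato was at most 0.09 CPM in any GFP High library, at 0.826, 0.76 and 1.26 in those of GFP Low, and at 3.56, 2.52 and 1.71 in RFP 1, 2 and 3. Within each group the libraries with more Vcan had the least eGFP, by small steps: 36.2 against 39.1 and 43.3 CPM in GFP High, 14.5 against 16.7 and 23.9 in GFP Low, and 0 and 0.353 against 0.594 in RFP. tdTomato showed no such order in the GFP groups, while in RFP it was higher in both libraries with more Vcan.

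A few abundant transcripts that are not specific to cumulus cells separated the sides, and the noncoding ones were chosen after their values were seen. Gm26917, a long noncoding RNA on chromosome 17 (39843013 to 39846341, plus strand), was at 244 CPM in GFP High 1, 185 in GFP Low 1, 169 in RFP 1 and 191 in RFP 2. It was at 0.321 in GFP High 2, 31.6 in GFP High 3, 15.1 in GFP Low 2, 21.2 in GFP Low 3 and 3.23 in RFP 3. Its annotation ends 11 bases before that of a ribosomal RNA gene, CT010467.1, which had medians of 82.7 CPM with more Vcan and 91.4 with less. Malat1, an abundant nuclear RNA, ranged from 39.6 to 71.7 CPM with more Vcan and from 13.6 to 23.3 with less, and was highest in RFP 1.

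The lower genes were fewer and mostly scarce. Hmgn1, which encodes a nucleosome-binding protein, was at 204, 200, 171 and 196 CPM in GFP High 1, GFP Low 1, RFP 1 and RFP 2, and at 694, 750, 766 and 688 in GFP High 3, GFP Low 2, GFP Low 3 and RFP 3. GFP High 2, the library without a Vcan count, was at 229 CPM, near the libraries with the most Vcan. Hmgn1 therefore took 2 levels that matched the Vcan division in 8 of 9 libraries. Grap2, Ppef2 and Slc39a14 had means 0.163, 0.221 and 0.23 times those of the other side, but stood at or under 0.644 CPM in each library with more Vcan. The highest value of Ppef2 and Slc39a14 was in GFP High 2, at 4.65 and 4.53 CPM.

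**Figure D5:**
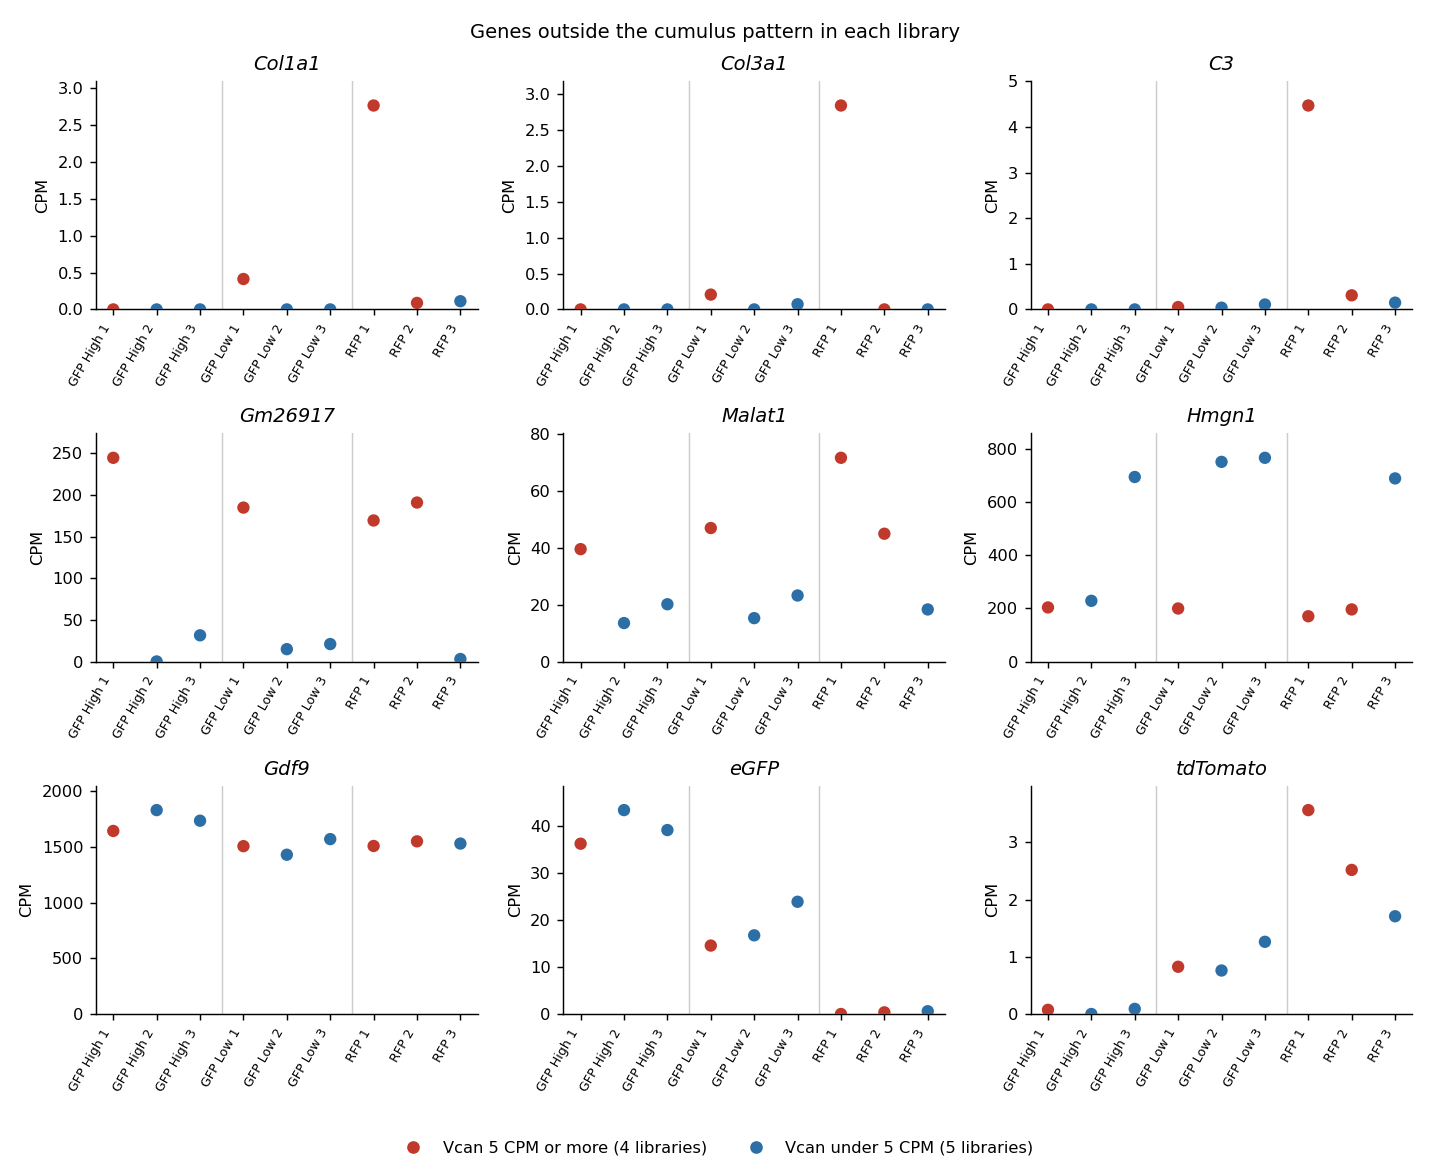
CPM of 9 genes (y axes, linear, from 0) in each library (x axis, grey lines separate reporter groups), red for Vcan of 5 CPM or more and blue for less. Col1a1, Col3a1 and C3 stand out in RFP 1, and Gm26917 and Malat1 separate the sides. Hmgn1 is low in GFP High 2 as well as in the 4 red libraries. Gdf9, eGFP and tdTomato overlap between the sides.

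The division by Vcan was uneven across the reporter groups, and the somatic genes were therefore examined in the comparisons of those groups, which the labels define. With edgeR's quasi-likelihood test, 2 of 14829 genes (0.0135%) passed an adjusted p of 0.05 between GFP High and RFP, 3 of 15199 (0.0197%) between GFP Low and RFP, and 0 of 14785 (0.0%) between GFP High and GFP Low. At an unadjusted edgeR p under 0.05 these comparisons had 606 (4.09%), 398 (2.62%) and 558 (3.77%) genes, and DESeq2 called 4 in the last of them. The genes that passed were eGFP and Gm2042 in the first, and these with Rps28, which overlaps Kank3 on the opposite strand, in the second. No gene of the cumulus, granulosa or matrix and cytoskeleton lists passed in any comparison by these edgeR fits or by DESeq2. With no low-count filter, the edgeR calls between GFP Low and RFP included Adamts1 of the cumulus list and Timp1 of the matrix list. They also included Gm26917, Malat1, Hmgn1 and C3. Adamts1 was at 1.78 CPM in RFP 1, 0.486 in RFP 2 and 0 in RFP 3 and the GFP Low libraries. Timp1 had 138 counts in RFP 1, 40 in RFP 2 and 14 in GFP Low 1. In GFP Low against RFP, 1 granulosa and 2 matrix genes had an unadjusted edgeR p under 0.05, and in the other comparisons none did.

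Vcan itself had an edgeR log2 fold change of -0.98 (SE 1.46) for GFP High relative to RFP, with an adjusted p of 0.997. Relative to RFP, GFP Low had -0.71 (SE 1.04, edgeR adjusted p = 1.00). Between the 2 GFP groups the value was -0.28 (SE 1.48, edgeR adjusted p = 0.998). Vim had -1.16 (SE 1.77), -1.2 (SE 1.10) and 0.02 (SE 1.63) in the same order, with edgeR adjusted p from 0.997 to 1.00. The standard errors were computed from the log2 fold changes and the F statistics of the edgeR test. They were larger than the differences except for Vim in GFP Low against RFP. Each reporter group held libraries on either side of the Vcan threshold. Over the genes tested, the median log2 fold change against RFP was -0.36 (GFP High) and -0.33 (GFP Low) for the cumulus list, and -0.59 and -0.52 for the matrix and cytoskeleton list. In the same order it was -0.16 and -0.14 for the granulosa list, and -0.006 and -0.004 over all genes. These comparisons share the RFP libraries, of which 2 of 3 lay on the side with more Vcan.

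Genes detected at 1 CPM or more numbered 12792 to 12951 in the libraries with more Vcan and 12375 to 12872 in the others. The medians differed by 214.5 genes and the ranges overlapped, since GFP High 3 had 12872 and RFP 1 had 12792. With every library thinned to 19381677 counts the medians differed by 246.5 genes.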

How the data were processed

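Per the labels' protocols, paired-end reads were taken from poly-A RNA of 9 pools of MII oocytes. The submitters' processing notes name fastp, HISAT2 2.0.5, featureCounts 1.5.0-p3, DESeq2 1.20.0 and mm10 without giving roles. The authors deposited 3 tables, 1 per pair of reporter groups, with the raw read count of each gene in 6 libraries. Per the file headers the same tables hold FPKM and a normalised signal per library. The deposited FPKM was used to set genes side by side per length, and the deposited normalised signal and the authors' deposited log2 fold changes, p-values and adjusted p-values were not used.

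Counts were joined by gene identifier, with 0 for 178 genes missing from a table, and divided by the library total to give CPM. The members, lists and naming rule were chosen with earlier results of these data known. For each gene the libraries with Vcan of 5 CPM or more were set against the rest by their ranges and by the ratio of mean CPM, among genes with a mean of at least 1 CPM. Log2 ratios use the means plus 0.5 CPM. Lists covered cumulus expansion, granulosa, matrix and cytoskeleton, cholesterol synthesis, stroma and theca, oviduct epithelium, endothelium, leukocytes, erythrocytes, smooth muscle, immediate-early, oocyte, ribosomal protein and mitochondrially encoded genes.

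Genes named were Vcan, Tnfaip6, Inha and Inhba, up to 10 members of each list by mean CPM, the 15 protein-coding genes outside the lists with the largest and the 15 with the smallest ratio among those that separated the sides, every gene called by edgeR, and the reporters. Fst, Inhbb, Sult1e1, Tagln2, Lgals1, Nr4a1, S100a10, S100a11, Ahnak, Timp1, Adamts1, Has2, Areg, Ereg, Foxl2, Amh, Lhcgr, Rpl26, Rps27rt, C3, Cyp11a1, Krt19, Cyp17a1, CT010467.1, Gm26917 and Malat1 were named after their values were seen.

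Reporter groups were compared on 6 libraries each with edgeR 4.0.16 in R 4.3.3 (filterByExpr, TMM, glmQLFit and glmQLFTest, Benjamini-Hochberg adjustment over all genes tested, threshold 0.05). The fit was tested on simulated data. Alternatives were DESeq2 1.42.0, limma 3.58.1 voom, no low-count filter, a replicate block, other Vcan thresholds and filters, protein-coding genes only, TMM scaling and each library left out in turn. Coordinates are on GRCm38 (mm10); 29287 of 30153 identifiers had the same coordinates in GENCODE M21. Library totals were 19381677 to 27746256 counts, and at the largest total a floor of 3 counts is 0.108 CPM.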

Additional observations from a re-analysis of the deposited data

Results flagged for a closer look

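Over 58 sets of values examined, each over all 9 libraries or over the 4 or 5 of a side, 5 held a library whose gap to its nearest neighbour was large for the range of the set, and chance gives such a gap in about 1 set in 20. That rate is for a single set of normally distributed values, and the sets here share libraries and genes. The 5 flagged sets concern 3 gene lists.

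The summed CPM of the stroma and theca list was 10.9 in RFP 1, far from the next of the 9 libraries at 3.21. Among the 5 libraries with less Vcan, the same list was 3.21 in GFP Low 3, with the next library at 1.37. Pdgfra and Col1a1 took most of this list.

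The summed CPM of the cholesterol synthesis list was 1336 in GFP High 2, below the next of the 9 libraries at 1440 and below the next of the libraries with less Vcan at 1448. GFP High 2 was also the library with no Vcan count.

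The erythrocyte list, of which Alas2 alone was in the tables, was 0.817 CPM in RFP 3, with the next library at 0.396. That library lay on the side with less Vcan.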

How the results depend on the processing

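The 72 higher genes at 2-fold became 218 with no filter on low values and 19 with a mean of at least 5 CPM, and 77 to 117 with 1 library left out. The 174 higher genes without a fold became 322 and 99 under the same filters, and 255 to 347 with 1 library left out. The 17 lower genes became 1 with a mean of at least 5 CPM, 11 among protein-coding genes, and 25 to 38 with 1 library left out. The 93 lower genes without a fold became 161 at a Vcan threshold of 10 CPM, which moves RFP 1 to the other side, and 160 to 232 with 1 library left out. A left-out library leaves fewer values that must not overlap. At 10 CPM, 40 of the 72 and 3 of the 17 were kept. A threshold of 2 CPM gave the same sides. Genes detected at 0.1 CPM differed between the sides by 585 in the median.

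GFP High against RFP had 12 calls with DESeq2, 16 with no filter, 18 without the libraries with Vcan of 5 CPM or more and 1 with limma-voom, an alternative chosen after seeing the data. It had 0 to 2 with 1 library left out, and 0 when RFP 2, RFP 3, GFP High 1 or GFP High 3 was the one. GFP Low against RFP had 10, 34, 23 and 1 in the same order, and 2 to 3 with 1 library left out. GFP High against GFP Low had 4 with DESeq2, 16 with no filter, and 0 to 1 with 1 library left out. Fits without the libraries with more Vcan leave RFP with 1 library, which is assumed to vary like the other group. The cause of these changes was not tested.

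With the replicate number as a block, the calls were 4, 3 and 0 in the order above. Deviations of same-numbered libraries had correlations from -0.126 to 0.155 over the 3 comparisons, so the numbers were not taken to pair the libraries.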
